A study of Mus musculus with 14 samples.

Results

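The potassium channel genes of the mouse were followed across spinal motoneurons, interneurons and stem cell-derived progenitors. Members were taken by name, as every gene whose symbol begins with Kcn and a letter of a pore or accessory subunit family (a to h, ip, j, k, ma, mb, n, q, s, t, u or v), apart from names ending in os or Rik. The rule gave 95 of 23523 gene entries, of which 93 are channel or subunit genes. The other 2 are noncoding RNAs, Kcnq1ot1 and Kcnmb4os1, whose names match the rule. Each symbol had 1 row in the gene table, and the transcript table held 179 rows of these genes among 31702.

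The samples were made to study miR-218, a microRNA enriched in motoneurons. Motoneurons were sorted as GFP-positive cells carrying the transgene Hb9::gfp from spinal cords at E12.5, with 2 libraries of the miR-218 mutant genotype labelled 218DKO (written DKO here) and 6 wild-type (WT) libraries. WT interneurons of the same stage, sorted as tdTomato-positive cells, gave 1 library each of V1 (En1:cre;Rosa26:LSL:tdTomato), V2a (Chx10:cre;Rosa26:LSL:tdTomato) and V3 (Sim1:cre;Rosa26:LSL:tdTomato). WT embryonic stem cells of the mouse (mES), cultured for 4 days with retinoic acid and a sonic hedgehog agonist, gave 1 library of motoneuron progenitors (pMN; Olig2:cre;Rosa26:LSL:tdTomato, tdTomato-positive) and 1 of spinal neural progenitors (NP; no reporter, unsorted). A Cre driver marks every descendant of a cell that expressed it, and Hb9::gfp marks cells by 1 promoter, so each library is a population defined by its reporter. A floor plate sample was not analysed here. No row of the gene table holds miR-218 itself, so its loss was not checked in these files.

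Potassium channels let potassium leave the cell, which sets the resting potential, ends each action potential and shapes firing rate. Voltage-gated (Kv) channels open on depolarization, calcium-activated (BK and SK) channels follow calcium entry, sodium-activated (Slo2) channels follow sodium entry, inward rectifiers (Kir) hold the resting potential, and channels of the K2P family carry a background leak. Accessory subunits such as the KChIP, Kv beta, BK beta and Kcne proteins change the gating or surface level of the pores. Embryonic motoneurons become excitable as they send out their axons, and TASK-type leak channels, SK channels and the Kv4 current are known features of these cells.

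A microRNA lowers the level of messages whose 3′ UTR pairs with its seed, bases 2 to 8. The mature miR-218 sequence of RefSeq is shown with its seed in capitals, because the DKO comparison turns on it, and it is encoded on the plus strand at chr5:48223966-48223986 and chr11:35616840-35616860 (GRCm38.p6). The 8mer match to the seed is AAGCACAA, the 7mer-m8 match AAGCACA and the 7mer-A1 match AGCACAA, searched on the sense strand of the annotated 3′ UTR, each gene being counted in its strongest class.

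miR-218-5p: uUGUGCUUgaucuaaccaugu

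Of the 93 channel genes, all with an annotated 3′ UTR in GENCODE M21 (GRCm38), 7 held an 8mer: Kcnb2, Kcnh1, Kcnip3, Kcnj16, Kcnk1, Kcnq3 and Kcnt1. This is 7.53% of them, against 3.70% of all 20559 gene entries with a UTR, and the median UTR length was 1629 bases in the channel genes and 856 bases in all. A 7mer-m8 was the strongest match in 13 (9.09% of all entries) and a 7mer-A1 in 11 (4.55%), and 62 had none. The sites of the 6 that could be tested are shown with the 14 bases before them, the 8mer in capitals.

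Kcnk1: cccacctcacactaAAGCACAA
Kcnip3, first site: cgaccaagacaaaaAAGCACAA
Kcnip3, second site: tcgccaacattctaAAGCACAA
Kcnt1: actcctgatctgagAAGCACAA
Kcnh1: tgacatttttaaacAAGCACAA
Kcnq3: gaaagatggatgttAAGCACAA
Kcnb2: ctgcagggaagaagAAGCACAA

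The printed stretches lie at chr8:126030569-126030590 (plus strand) for Kcnk1, chr2:127457388-127457409 and chr2:127457228-127457249 (minus strand) for Kcnip3, chr2:25916937-25916958 (plus) for Kcnt1, chr1:192510072-192510093 (plus) for Kcnh1, chr15:65993790-65993811 (minus) for Kcnq3 and chr1:15723181-15723202 (plus) for Kcnb2. Their UTRs differ widely in length. The Kcnk1 match starts at base 832 of a UTR of 934 bases, the Kcnt1 match at base 834 of 2156, and the Kcnb2 match at base 11566 of 12121. A match describes the sequence and is not evidence of binding.

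All values are the deposited signal, a length-scaled and library-scaled abundance that can be set side by side between genes and libraries. Approximate depth was lowest in DKO replicate 1 (7.85 M reads) and highest in WT replicate 1 (30.0 M reads), and 3 reads in a transcript of 2000 bases were worth a signal of 3.94 in the first and 0.994 in WT replicate 1. The summed level of 7 motoneuron markers was 10084 and 9472 in DKO, 13649 to 17253 in WT, 51.6, 1638 and 294 in V1, V2a and V3, and 318 and 580 in pMN and NP. The gap between DKO and WT in this sum lay mainly in Prph (448 and 459 in DKO, 4826 to 7874 in WT). The other 6 markers summed to 9636 and 9013 in DKO, against 7934 to 9379 in WT, but this sum hides differences in both directions. Slc18a3 lay below all WT values (1410 and 1265 in DKO, 1658 to 2720 in WT). Mnx1 lay at the high end of the WT range or above it (4330 and 3863 in DKO, 2194 to 3995 in WT). The V1, V2a and V3 libraries each held the highest summed level of their own markers (12568, 13983 and 7388). A list of 7 blood genes summed to 11182 in V2a and to at most 1392 elsewhere, and 5 mesenchyme genes summed to 819 in V3. WT replicates 2, 3 and 4 held 10197 to 27943 of the ribosomal precursor Rn45s, against 644 to 4275 in WT replicates 1, 5 and 6 and 1647 and 1112 in DKO. Nothing in the labels ties replicates to separate animals or litters. The p-values therefore reflect the spread among these libraries alone, part of which may be technical.

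The 95 genes together had a summed signal of 7694 and 7926 in DKO, 7126 to 8109 in WT, 7493 in V1, 5589 in V2a, 5600 in V3, 1254 in pMN and 1233 in NP. DKO totals lay within the WT range, V2a and V3 lay below every WT library, and both progenitor libraries lay far below all neurons. In these bulk samples fewer cells expressing a gene and less of its RNA per cell cannot be told apart. A signal of 20 was reached in at least 1 library by 62 of the genes and in every WT library by 39. The other 33 stayed under 20 throughout, and of these Kcna10 was listed at 0 in all 13 libraries.

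**Figure D1:**
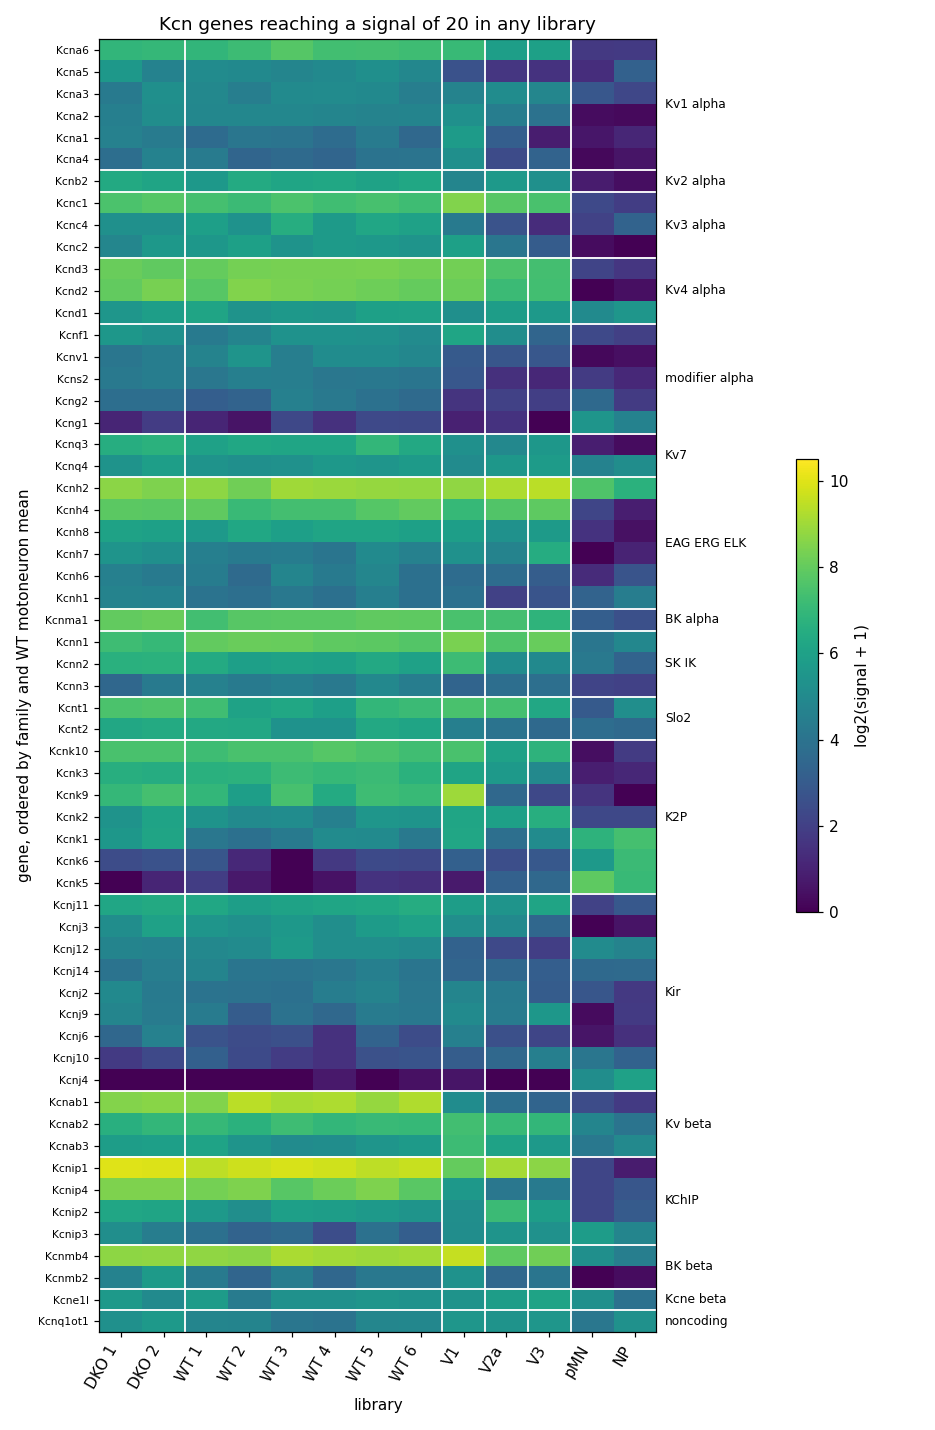
Signal of 59 of the 62 Kcn genes that reached 20 in any library, as log2(signal + 1) by colour, with 1 row per gene (grouped by family) and 1 column per library. Most rows are similar across DKO, WT and interneurons and dark in pMN and NP, while Kcnk5, Kcnk6, Kcnj4 and Kcng1 show the reverse.

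Among the pore genes, Kcnq3 encodes a subunit of the M-current, a slow current that limits repetitive firing. Its signal was 92.6 and 103 in DKO, 64.0 to 125 in WT (median 73.3), 37.3 in V1, 29.1 in V2a, 46.0 in V3, and under 1 in pMN and NP. It was thus lower in each interneuron library than in any motoneuron library, and close to 0 in the progenitors. Kcnh2, the ERG channel gene, had a mean of 436 ± 76.7 (SD, n = 6) in WT motoneurons, and the Kv4 genes of the A-type current, Kcnd3 and Kcnd2, had 311 ± 27.4 and 296 ± 53.2.

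The SK channel gene Kcnn1 had 243 ± 24.1 in WT motoneurons, the BK pore gene Kcnma1 219 ± 31.8 and the ELK channel gene Kcnh4 195 ± 46.4. The K2P family was led by Kcnk10 (174 ± 21.5), a TREK channel gene, ahead of the TASK genes Kcnk3 (121 ± 20.1) and Kcnk9 (121 ± 42.7), whose means did not differ beyond their spread. Kcna6 led the Kv1 genes (157 ± 30.5), Kcnt1 the Slo2 genes (104 ± 41.6), Kcnj11, the pore of the ATP-sensitive channel, the Kir genes (71.9 ± 10.4), and Kcnf1 the modifier subunits that form no channel alone (32.7 ± 8.84). Kcnu1, a Slo3 gene known from sperm, had 13.1 ± 2.83.

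The accessory genes were among the highest of all. Kcnip1, which encodes a KChIP partner of Kv4 pores, had 799 ± 92.4 in WT motoneurons, Kcnab1, a Kv beta subunit that speeds inactivation of Kv1 pores, 543 ± 113, Kcnmb4, the neuronal BK beta subunit, 495 ± 66.0, and Kcnip4 291 ± 59.9. The Kcne family was low and was led by Kcne1l (39.2 ± 11.1). The 12 highest genes together held 67.7% of the summed WT level, so the family's abundance rested on few genes.

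The first comparison asks which of these genes differ in DKO motoneurons. Kcnk1, a K2P gene (TWIK1) and 1 of the 8mer genes, rose, and the SK gene Kcnn1 and the ELK gene Kcnh3 fell. No other gene passed the test (limma, adjusted p under 0.05 over all genes tested). Of the 95 genes 76 were tested, the other 19 having a mean signal under 1 in these libraries. The counts were 1 higher, against 3.22% of all 16260 genes tested, and 2 lower, against 4.77%, so the share called was below that of all genes in either direction (7.99% of all genes were called in 1 direction or the other). The median log2 difference was 0.14 for the 76 genes and 0.0015 for all genes, and 47 of the 76 were positive, against 50.2% of all genes. The DKO and WT values did not overlap for 24 of the 76 genes, against 30.7% of all genes.

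Kcnk1 had a signal of 46.4 and 68.3 in DKO, against 13.7 to 32.6 in WT (median 18.5). Both DKO libraries lay above every WT library. The log2 difference was 1.39 (SE 0.35, adjusted p = 0.0359), and the means were 57.4 ± 15.4 (n = 2) in DKO and 22.03 ± 8.15 (n = 6) in WT. The call was lost without WT replicate 3 (adjusted p = 0.0601) or WT replicate 6 (0.0586). It was also lost without either DKO library, where the log2 difference was 1.66 (without replicate 1) and 1.11 (without replicate 2). Those fits leave 1 DKO library, and in them calls fell over all genes, not in this gene alone.

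Kcnn1 had 149 and 130 in DKO, against 206 to 270 in WT (median 242). Both DKO libraries lay below every WT library, with means of 140 ± 13.5 in DKO and 243 ± 24.1 in WT. The log2 difference was -0.79 (SE 0.13, adjusted p = 0.00794), and the call was kept without each WT library. It was lost in the fits that leave 1 DKO library, with log2 differences of -0.89 (without replicate 1) and -0.69 (without replicate 2). SK channels carry the afterhyperpolarization that spaces spikes, and the other 2 SK genes did not pass. Kcnn2 had 101 and 104 in DKO, against 60.4 to 83.6 in WT (log2 0.57, adjusted p = 0.0702, and 0.0452 without WT replicate 1), and Kcnn3, added after its values were seen, had 10.3 and 19.0 in DKO, against 18.1 to 28.9 in WT (log2 -0.60, adjusted p = 0.211). The DKO values of Kcnn2 thus lay above all WT values, those of Kcnn1 below them, and those of Kcnn3 overlapped them.

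Kcnh3, which encodes the channel Kv12.2, had 5.83 and 3.14 in DKO, against 8.25 to 14.01 in WT (median 12.03). The groups did not overlap (log2 -1.27, SE 0.33, adjusted p = 0.0401), but 3 reads of this gene were worth 2.13 and 1.02 in the DKO libraries, so its DKO values rest on few reads. Its call was kept in 1 of 8 fits that each left out a library, that without WT replicate 2. In the fits that leave 1 DKO library its log2 difference was -1.63 (without replicate 1) and -0.90 (without replicate 2). The ELK gene Kcnh4 had 232 and 227 in DKO, against 138 to 250 in WT, and did not pass.

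**Figure D2:**
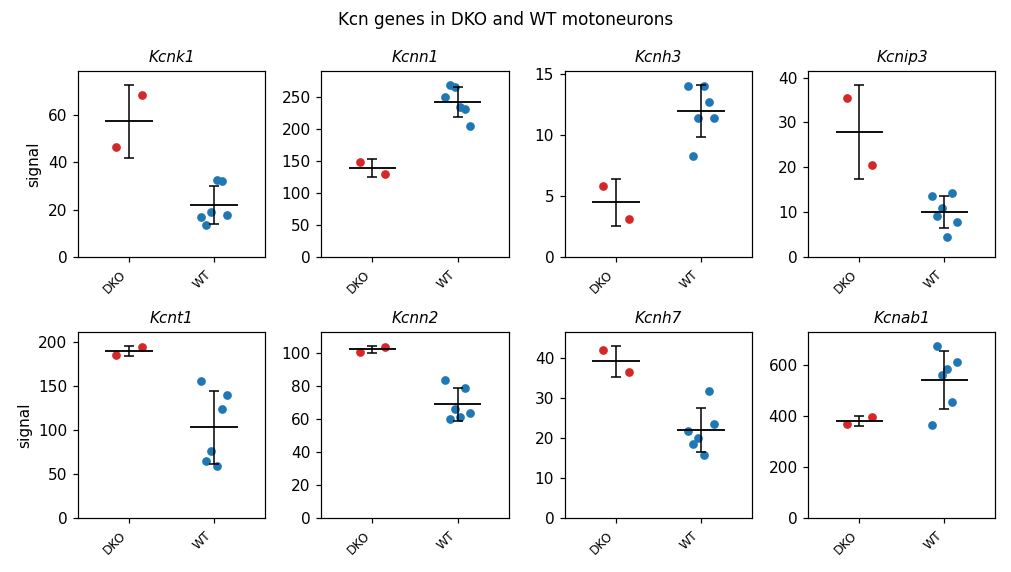
Signal of 8 Kcn genes in DKO (left, n = 2) and WT (right, n = 6) motoneuron libraries, each panel on its own axis from 0, with points for libraries and lines for the mean ± SD. DKO points lie above all WT points for Kcnk1, Kcnip3, Kcnt1, Kcnn2 and Kcnh7, below them for Kcnn1 and Kcnh3, and within the WT range for Kcnab1, and of these Kcnk1, Kcnn1 and Kcnh3 passed the test.

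Several genes had differences of similar size that missed the threshold. Kcnip3, the KChIP protein also known as a calcium-sensing transcriptional repressor, had 35.4 and 20.6 in DKO, against 4.59 to 14.3 in WT (median 10.2; log2 1.41, SE 0.41, adjusted p = 0.0571), and the groups did not overlap. The Kir genes Kcnj13 and Kcnj6, the second a subunit of G protein-gated channels, had log2 differences of 1.60 (SE 0.59, adjusted p = 0.117) and 1.56 (SE 0.48, adjusted p = 0.0711). Kcnj6 had 10.2 and 23.5 in DKO, against 1.81 to 9.12 in WT, and Kcnj13 had 3.87 and 4.63 in DKO, against 0 to 3.15 in WT, where 3 reads were worth 6.21 and 2.96 in the DKO libraries. Chosen after their values were seen, Kcnmb2 (24.2 and 52.2 in DKO, 9.77 to 20.7 in WT, adjusted p = 0.0769), Kcnh7 (41.9 and 36.5 in DKO, 15.8 to 31.7 in WT, adjusted p = 0.0827) and Kcnk4 (13.5 and 17.3 in DKO, 6.70 to 10.2 in WT, adjusted p = 0.0869) had groups apart as well. The noncoding Kcnq1ot1, which is transcribed across the Kcnq1 gene on its other strand, had 38.1 and 49.0 in DKO, against 14.8 to 28.1 in WT (log2 0.92, adjusted p = 0.0823). The kit does not mark strand, so reads of overlapping genes such as Kcnq1 and Kcnq1ot1, or Kcnmb4 and Kcnmb4os1, cannot be told apart.

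Accessory genes of high level did not pass. Kcnip1 had 1024 and 987 in DKO, against 693 to 928 in WT (median 807), groups that did not overlap (log2 0.34, SE 0.13, adjusted p = 0.118). Against WT replicates 1, 5 and 6 alone its log2 difference was 0.47 (adjusted p = 0.0145), and against WT replicates 2, 3 and 4 alone 0.21 (0.211). Kcnab1 had 369 and 396 in DKO, against 366 to 677 in WT (log2 -0.48, SE 0.20, adjusted p = 0.161), where the DKO values lay at the low end of the WT range. It was called lower against WT replicates 2, 3 and 4 alone (log2 -0.66, adjusted p = 0.0172) and without WT replicate 1 (0.0376). Against WT replicates 1, 5 and 6 alone it did not pass (log2 -0.29, adjusted p = 0.347). By role, 3 of 55 tested pore genes, none of 13 accessory genes and none of 7 modifier genes were called, against 7.99% of all genes, counts too small to tell the roles apart. Their median log2 differences were 0.14, 0.34 and 0.0015.

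The genes were grouped by miR-218 match. The 6 tested 8mer genes were all positive, with a median log2 difference of 0.80. Of all 622 tested genes with an 8mer, 78.6% were positive, with a median of 0.31, and 19.1% were called higher, against 1 of the 6. The 11 tested genes with a 7mer-m8 as their strongest match had 8 positive differences and a median of 0.20, against 61.5% and 0.12 for all such genes, of which 8.38% were called higher. The 11 with a 7mer-A1 had 9 positive and a median of 0.28, against 60.8% and 0.08, with 5.73% of all such genes called higher. The 28 tested Kcn genes with any match had 23 positive differences and a median of 0.30 (64.9% and 0.16 for all genes with a match, 9.97% called higher), and the 47 without a match had 23 positive and a median of -0.02 (44.6% and -0.05 for all genes without one, 1.56% called higher). The 1325 tested genes with no annotated 3′ UTR, which hold no site by this search, had a median of 0.32, with 68.3% positive and 3.32% called higher, and Kcnq1ot1 was the Kcn gene among them. The all-gene median of that group was thus as high as that of the 8mer genes. Both genes that fell, Kcnn1 and Kcnh3, had no match in the UTR used. These counts describe the list, and no test was made over its members.

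Among the other 8mer genes, Kcnt1 encodes the sodium-activated channel Slack. It had 186 and 194 in DKO, against 59.6 to 156 in WT (median 99.99), groups that did not overlap (log2 0.97, SE 0.35, adjusted p = 0.112). The WT values fell into 59.6 to 76.1 in replicates 2, 3 and 4 and 124 to 156 in replicates 1, 5 and 6. Against the first 3 alone the log2 difference was 1.497 (adjusted p = 0.00489), and against the other 3 alone it was 0.44 (0.055). These sets of WT libraries also differed in Rn45s, whose part in the Kcnt1 values was not tested. Kcnh1, the EAG channel gene, had 25.1 and 23.9 in DKO, against 13.3 to 21.9 in WT, groups again apart (log2 0.63, SE 0.27, adjusted p = 0.165). For Kcnq3 (log2 0.31, adjusted p = 0.42) and Kcnb2 (83.1 and 69.9 in DKO, 48.0 to 83.4 in WT, log2 0.15, adjusted p = 0.696) the groups overlapped.

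**Figure D3:**
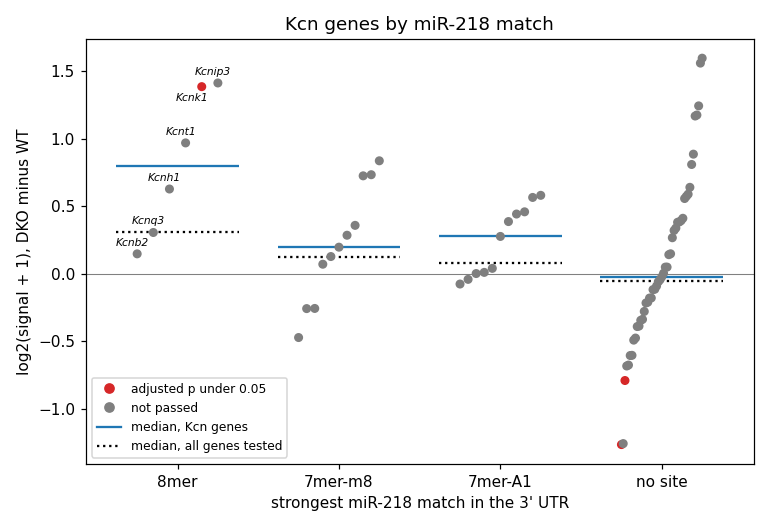
Log2(signal + 1) difference, DKO minus WT, of the tested Kcn genes by the strongest miR-218 match in the annotated 3′ UTR, 1 point per gene, with the median of the Kcn genes (blue) and of all genes tested in that class (dotted). The 6 8mer genes all lie above 0 around a median of 0.80, and the 47 genes without a match spread on both sides of 0.

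Transcripts were looked at after their values were seen. Kcnip3 had 2 RefSeq transcripts in the files. In the neuron libraries all its signal was in NM_019789, and NM_001111331 was listed at 0 in all 11 of them. In the progenitors NM_001111331 held 36.7 in pMN and 18.1 in NP, and NM_019789 held 17.4 in pMN and 8.25 in NP. Of the 3 Kcnip1 transcripts, NM_001190885 held 226 and 200 in DKO, against 60.4 to 171 in WT, and NM_027398, the highest, held 798 and 787 in DKO, against 582 to 819 in WT. The DKO values of the first lay above all WT values, and those of the second among them.

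Of the 7 motoneuron markers 2 were called lower in DKO, and the median log2 difference of the list was 0.14. Of 6 neural progenitor markers 1 was called lower. They summed to 2651 and 2209 in DKO, against 4534 to 5600 in WT, mostly Vim (2150 and 1809 in DKO, 3601 to 5184 in WT), and the other 5 summed to 500 and 401 in DKO, against 415 to 1395 in WT. Their part in the differences above was not tested. Of a list of 28 partner genes of potassium channels, chosen as the other lists were with earlier results known, 27 were tested, 3 were higher in DKO, against 3.22% of all genes, and none was lower, against 4.77%. These were Dlg2, a scaffold that clusters Kv1 channels (359 in DKO, 156 in WT, log2 1.21, adjusted p = 0.00205), Lrrc55, a BK gamma subunit (111 in DKO, 47.1 in WT, log2 1.24, adjusted p = 0.00616), and Cntnap2, which places Kv1 channels along the axon (438 in DKO, 271 in WT, log2 0.70, adjusted p = 0.0105).

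The second comparison set WT motoneurons against the V1, V2a and V3 interneurons taken as 1 class, since each type had 1 library. Of 79 genes tested 24 were higher in motoneurons, against 17.7% of all genes tested, and 8 were lower, against 15.2% (32.9% in either direction). The difference was positive for 46 genes, against 47.2% of all genes, and the groups did not overlap for 24, against 33.1%. The median log2 difference was 0.25, and -0.04 over all 16486 genes tested. The accessory genes Kcnab1 and Kcnip4 led the higher genes, and KChIP, Kir and K2P genes were on both sides.

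Kcnab1 had a signal of 366 to 677 in WT motoneurons (median 574), against 33.2 in V1, 12.97 in V2a and 9.51 in V3. The motoneuron libraries all lay far above the interneuron libraries (log2 4.96, SE 0.33, adjusted p = 4.76e-06). Its relative Kcnab2, added after its values were seen, did not pass, with 103 to 149 in WT motoneurons, against 158, 133 and 124 in V1, V2a and V3. Kcnip4 had 220 to 356 in WT motoneurons, against 47.4, 17.01 and 19.2 in V1, V2a and V3 (log2 3.46, SE 0.30, adjusted p = 2.94e-05). In the transcript table its isoform NM_030265, chosen after its values were seen, had 82.5 to 141 in WT motoneurons and was listed at 0 in all 3 interneuron libraries.

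The pore genes with the largest differences had lower levels. Kcna5 (Kv1.5) had 26.6 to 36.3 in WT motoneurons, against 5.26, 2.17 and 1.91 in V1, V2a and V3 (log2 3.03, SE 0.29, adjusted p = 5.59e-05). Kcnc4, an inactivating member of the Kv3 genes, had 39.6 to 91.3 in WT motoneurons, against 19.1, 5.41 and 1.53 (log2 3.18, SE 0.53, adjusted p = 0.00145). In these genes V1 was the highest interneuron library and still lay below every motoneuron library. Kcnj12, a strong inward rectifier (Kir2.2), had 28.7 to 52.5 in WT motoneurons, against 8.92, 3.93 and 2.86 (log2 2.67, adjusted p = 0.000254). Kcnt2, the gene of the sodium-activated channel Slick, had 39.8 to 80.7 in WT motoneurons, against 21.96, 15.1 and 11.05 (log2 1.93, adjusted p = 0.00135).

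The modifier genes Kcns2, Kcnv1 and Kcng2, whose products join Kv2 pores, were higher, with log2 differences of 2.46, 2.08 and 1.94 and means of 18.6, 30.7 and 13.8 in WT motoneurons and 3.06, 6.32 and 2.65 in interneurons. Of the 8 modifier genes tested these 3 were higher and 5 did not pass, where 17.7% of all genes were higher and 15.2% lower. Kcnh3 and Kcnh5 of the EAG and ELK genes were higher as well (log2 2.48 and 1.40), with means of 11.95 and 11.2 in WT motoneurons and 1.35 and 4.03 in interneurons, and the call of Kcnh5 was lost without V3 (adjusted p = 0.0694). The Kv4 genes Kcnd3 (log2 0.54, adjusted p = 0.0365) and Kcnd2 (log2 0.66, adjusted p = 0.0431) and their partner Kcnip1 (log2 1.04, adjusted p = 0.00303) were higher by smaller amounts. V1 lay within the WT range for both Kv4 genes, with 307 for Kcnd3 (258 to 335 in WT motoneurons, 189 in V2a, 165 in V3) and 281 for Kcnd2 (218 to 366 in WT motoneurons, 143 in V2a, 157 in V3). Both calls were lost without V2a (adjusted p = 0.13 for Kcnd3 and 0.176 for Kcnd2), without V3 (0.151 and 0.138) and without any 1 of WT replicates 2 to 6.

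Lower in motoneurons were Kcnip3, Kcnk2, Kcnk7, Kcnj9, Kcnj10, Kcnj13, Kcnc1 and Kcnq1ot1. Kcnip3 had 4.59 to 14.3 in WT motoneurons, against 34.3, 42.5 and 38.3 in V1, V2a and V3, with no overlap (log2 -1.90, SE 0.33, adjusted p = 0.00203). Kcnk2, the TREK1 leak channel gene, had 22.7 to 44.6 in WT motoneurons, against 71.9, 61.5 and 96.0, again apart (log2 -1.08, SE 0.25, adjusted p = 0.00834), while its relative Kcnk10 did not pass (adjusted p = 0.0638, and 0.00423 and higher in motoneurons without V1). Kcnk7 had 0 to 1.27 in WT motoneurons, against 3.03, 2.92 and 3.09, and 3 of its reads were worth 2.77, 2.67 and 2.83 in those 3 libraries, so its difference rests on few reads. The other calls hung on which libraries were used. Of these, Kcnj13 also rested on few reads, with 5.02, 4.03 and 2.56 in V1, V2a and V3. There 3 of its reads were worth 2.67, 2.58 and 2.73. Kcnc1 (Kv3.1) was kept only without V3 (0.0122), Kcnj13 only without WT replicate 5 (0.0167), Kcnj10 only without WT replicate 1 (0.0245) or V1 (0.029), Kcnj9 only without WT replicate 1 (0.0403), WT replicate 5 (0.0484) or V2a (0.0351), and Kcnq1ot1 in all such fits but that without V3 (0.0505), all values being adjusted p.

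**Figure D4:**
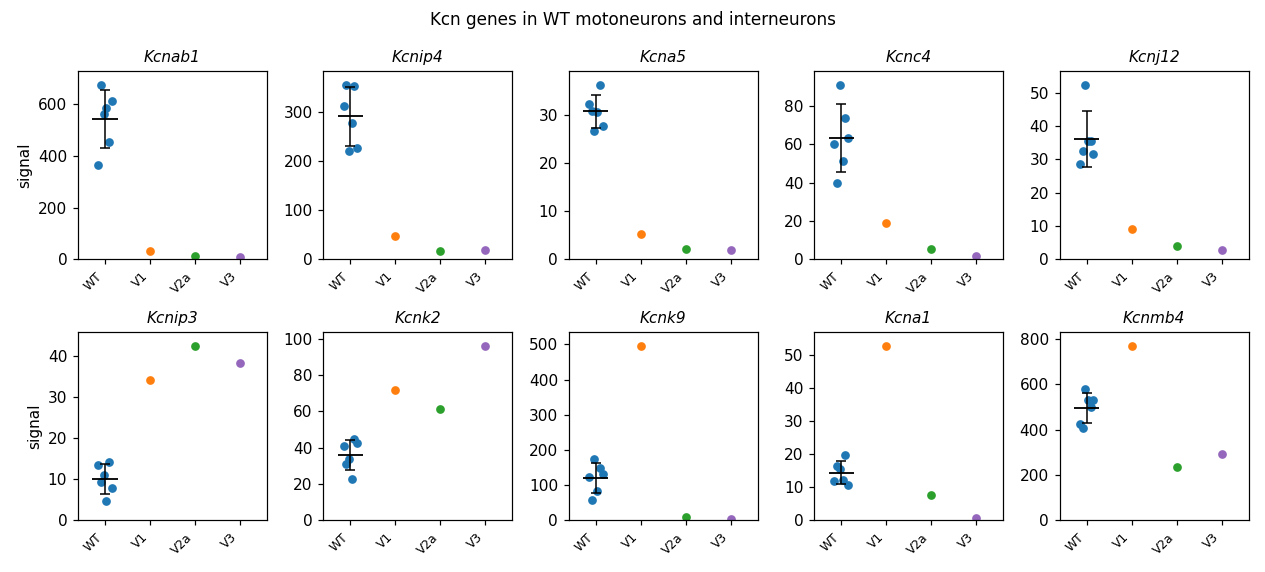
Signal of 10 Kcn genes in WT motoneurons (n = 6, with mean ± SD) and in the 1 library each of V1, V2a and V3 interneurons, each panel on its own axis from 0. In the upper row every WT point lies above all interneuron points, Kcnip3 and Kcnk2 show the opposite order, and Kcnk9, Kcna1 and Kcnmb4 have a V1 value above all WT points with V2a and V3 below them.

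The 3 interneuron libraries were not alike. Of the 62 genes that reached 20 somewhere, V1 lay above all WT motoneuron libraries for 23 (29.9% of all such genes) and below all for 22 (32.1%). V2a lay above for 12 (29.9%) and below for 32 (29.6%), and V3 above for 13 (30.9%) and below for 34 (30.7%). In V2a and V3 more of these genes thus lay below the motoneurons than above them, and in V1 the counts were close. There is 1 library of each type, so these are descriptions of libraries, and the blood and mesenchyme genes that were high in V2a and V3 stand beside them, their part not tested.

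Kcna1, Kcnk9 and Kcnn2 were at least 4-fold (on signal + 1) above both other types in V1, 3 of 47 genes with a signal of at least 20 there, against 0.964% of all such genes. None of 35 genes met this rule in V2a (0.468% of genes) or in V3 (0.894%). Kcnk9, the TASK3 gene, had 58.5 to 175 in WT motoneurons (median 128), against 496 in V1, 10.8 in V2a and 3.81 in V3. V1 thus lay above all motoneurons and the other types far below, and the fit over the class gave a positive log2 difference (1.91, SE 1.12, adjusted p = 0.206) although the motoneuron mean, 121, was under the interneuron mean, 170. Without V1 the difference was 3.93 (adjusted p = 0.000158). Its relative Kcnk3 had 99.8 to 147 in WT motoneurons, against 69.9, 49.6 and 29.9 in V1, V2a and V3, all below the motoneurons. Kcna1, the Kv1.1 gene of axonal membranes, had 10.8 to 19.8 in WT motoneurons, against 52.8, 7.75 and 0.769. Kcnn2 had 60.4 to 83.6 in WT motoneurons, against 146, 33.4 and 30.4.

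Of the partner list, 9 of 27 tested genes were higher in WT motoneurons, against 17.7% of all genes, and 3 were lower, against 15.2%. Abcc8, the sulphonylurea receptor that pairs with Kcnj11, had 139 to 279 in WT motoneurons, against 32.6 in V1, 29.2 in V2a and 150 in V3, the last within the WT range (log2 1.85, adjusted p = 0.0105), while Kcnj11 itself had 58.1 to 88.5 in WT motoneurons, against 56.6, 41.9 and 68.2 in V1, V2a and V3, and did not pass. Dlg2, higher in DKO, was lower in WT motoneurons than in interneurons (156 against 373, log2 -1.22, adjusted p = 0.000989). These comparisons share the WT libraries.

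The third comparison set WT motoneurons against the pMN and NP progenitors from mES cells as 1 class. Embryo and culture cannot be told apart from cell stage here. The 6 neural progenitor markers summed to 9525 in pMN but to 2652 in NP, which lay below every WT motoneuron library (4534 to 5600). Without Vim the sums were 4029 in pMN, 1151 in NP and 415 to 1395 in WT motoneurons. Of 80 genes tested 52 were higher in motoneurons, against 30.0% of all genes, and 11 lower, against 36.2% (66.2% in either direction). The difference was positive for 63 genes, against 46.8% of all genes, and the groups did not overlap for 64, against 66.1%. The median log2 difference was 2.34, and -0.12 over all 17134 genes tested. Most genes of the whole table were called in this comparison, and single calls should be read beside that share.

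Many voltage-gated and calcium-activated genes were higher. A higher call was made for 2 of 3 Kv4, 6 of 7 Kv1 and 7 of 8 EAG, ERG and ELK genes tested, against 30.0% of all genes. It was also made for the BK pore, 3 of 4 SK and IK genes, both Kv2 genes and all 4 Kv3 genes. The last Kv1 gene, Kcna7, and the IK gene, Kcnn4, were lower, against 36.2% of all genes. Of 5 Kv7 genes tested 2 were higher and 1 lower, and of 8 modifier genes 3 were higher and 1 lower. Large differences were those of Kcnip1 (log2 8.15, SE 0.30, adjusted p = 6.46e-09), Kcnd2 (7.97, SE 0.24, 1.79e-09), Kcnab1 (6.94, SE 0.26, 6.46e-09) and Kcnd3 (6.38, SE 0.19, 1.76e-09). Kcnip1 had 693 to 928 in WT motoneurons, against 3.58 in pMN and 0.717 in NP, and Kcnd2 had 218 to 366 in WT motoneurons, against 0 in pMN and 0.354 in NP. The progenitor values of Kcnd2 were below that of 3 reads, 0.472 and 0.471, so the size of its difference depends on the added 1. The third Kv4 gene, Kcnd1, added after its values were seen, had 41.6 to 68.5 in WT motoneurons, against 31.4 in pMN and 44.4 in NP, and did not pass.

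Lower in motoneurons were Kcnk5, Kcnj4, Kcnk6, Kcng1, Kcnk1, Kcnn4, Kcna7, Kcnip3, Kcnj13, Kcnj10 and Kcnq1. Kcnk5, the TASK2 gene, had 0 to 2.75 in WT motoneurons, against 237 in pMN and 134 in NP (log2 -6.47, SE 0.53, adjusted p = 1.96e-06). Kcnk6 (TWIK2) had 0 to 5.97 in WT motoneurons, against 48.9 and 142 (log2 -4.67, SE 0.71, adjusted p = 0.000178), and Kcnk1 (TWIK1) had 13.7 to 32.6, against 109 and 170 (log2 -2.65, SE 0.37, adjusted p = 0.000102). The K2P family thus had calls on both sides. Of its 10 tested genes 5 were higher (Kcnk2, Kcnk3, Kcnk4, Kcnk9 and Kcnk10), against 30.0% of all genes, and 3 lower, against 36.2%. The summed level of the family was 492 on average in WT motoneurons and 434 in the progenitors. Kcnj4, a Kir2 gene (Kir2.3), was at most 0.648 in WT motoneurons, against 34.5 in pMN and 63.6 in NP (log2 -5.38, SE 0.40, adjusted p = 8.81e-07), and Kcng1, a modifier gene, was 0.456 to 3.98, against 43.6 and 23.98 (log2 -3.39, SE 0.54, adjusted p = 0.000275).

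**Figure D5:**
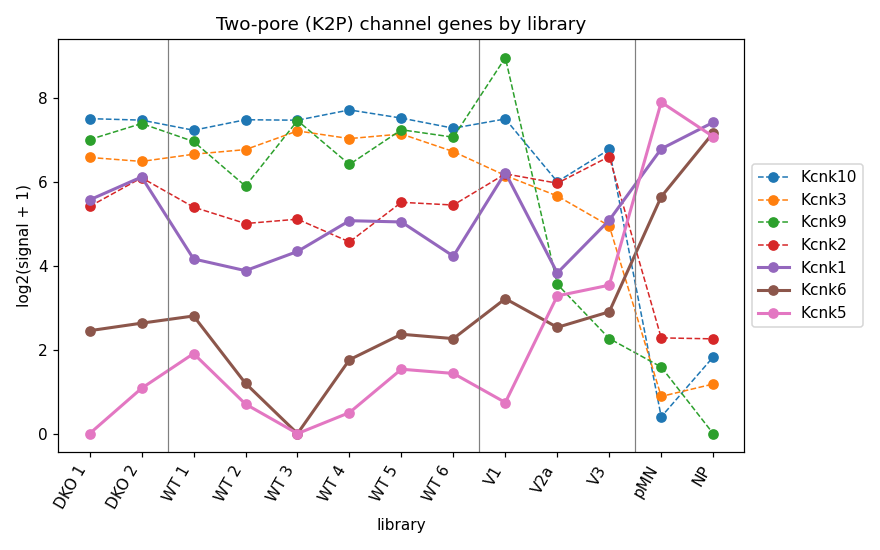
Log2(signal + 1) of 7 K2P genes in each library, with lines only to link the points of 1 gene. Kcnk10, Kcnk3, Kcnk9 and Kcnk2 (dashed) are low in pMN and NP, Kcnk5, Kcnk6 and Kcnk1 (solid) are highest there, and Kcnk1 lies higher in DKO than in WT.

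Smaller calls among these lower genes depended on the libraries. Kcnip3 (10.1 on average in WT motoneurons, 40.2 in the progenitors) was lost without pMN (adjusted p = 0.0651), and Kcnj10 without WT replicate 3 (0.0512) or pMN (0.229). Kcnj13 was lost without pMN (0.0652), NP (0.197) or WT replicate 2 (0.0537), 3 (0.05) or 6 (0.0529), and Kcnq1 without WT replicate 2 (0.0552), 4 (0.0531), 5 (0.0509) or 6 (0.062). Kcnn4, Kcna7 and Kcnq1 were at most 0.714, 0.508 and 1.17 in WT motoneuron libraries and reached 6.60, 8.52 and 4.78 in NP. Kcnj13 had 2.99 in pMN and 5.37 in NP, where 3 of its reads were worth 1.91 in each. A fit with 1 progenitor library assumes that it varies like the motoneurons.

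Between the progenitor libraries, each without a replicate, 12 of the 71 genes whose mean signal reached 1 were at least 2-fold higher in pMN than in NP on signal + 1 (8.20% of all such genes), and 13 were at least 2-fold lower (16.6%). Most of these were low in both libraries. Only Kcnip3 and Kcne1l on the higher side, and Kcnt1, Kcnk6, Kcnq1ot1 and Kcnh1 on the lower, reached 20 in either. Kcnip3 had 54.1 in pMN and 26.4 in NP, Kcne1l 37.9 in pMN and 13.9 in NP, and Kcnh2 194 in pMN and 104 in NP, just under that fold. Kcnt1 had 6.94 in pMN and 35.04 in NP, Kcnk6 48.9 in pMN and 142 in NP, and Kcnh1 9.14 in pMN and 20.9 in NP. The NP culture was unsorted, and 6 muscle and 5 mesenchyme genes summed to 104 and 129 in pMN and to 355 and 429 in NP, so cell mixture stands beside these ratios, its part not tested. Of the 27 partner genes tested, 22 were higher in WT motoneurons than in the progenitors, against 30.0% of all genes, and 1, Dlg1, was lower, against 36.2% (133 against 536, log2 -1.96, adjusted p = 1.29e-05).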

How the data were processed

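Transcript abundance came from polyadenylated RNA selected with oligo-dT in a kit that does not mark strand, per the labels' protocols. The authors deposited a signal for each RefSeq gene and transcript, with identifiers as in the file headers. DESeq, bedtools, mm9 and mm10 are named without a role in the submitters' processing notes. Which aligner and counter were used is not given in the sources used here. Values were not counts. Times transcript length, 78.0% to 79.8% of low values per library fell, to within 0.1, on whole multiples of the value of 1 read, against 20% by chance, and this gave the approximate depths. The design allowed for counts or normalized values, and its form for normalized values was used.

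For each comparison limma 3.58.1 (R 4.3.3) was fitted to log2(signal + 1) with a trended prior, for genes of mean signal at least 1, two-sided, Benjamini-Hochberg adjusted over all genes, at 0.05. This scale understates the change of low genes. Errors are SD over libraries. The procedure was tested on simulated data. Matches used 3′ UTRs of GENCODE M21, found for 20559 gene entries. The members and lists were chosen with earlier results of these data known. Genes are named by a rule: all DKO calls, the largest differences, the highest levels, the head of each family and 8mer genes, others, added after their values were seen, being marked. The values of 3 members, though counted, are not reported here. Alternatives changed the pseudocount, filter, scaling, prior and libraries used. No 2 libraries correlated above 0.985.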

Additional observations from a re-analysis of the deposited data

Results flagged for a closer look

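In 6 genes 1 of the 6 WT motoneuron libraries lay far from the others. Low were Kcnd3 in replicate 1 (257.9, against 309 to 335) and Kcnma1 in replicate 1 (157.7, against 217 to 247). High were Kcnj12 in replicate 3 (52.5, against 28.7 to 35.6), Kcnq3 in replicate 5 (124.6, against 64.0 to 79.3), Kcnj13 in replicate 5 (3.15, against 0 to 1.03) and Kcnmb4os1 in replicate 1 (1.75, against 0 in the other 5). Chance flags about 1 in 20 groups in this way, and only the 55 genes named by the rule, of the 95, were looked at.

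In 5 of the same 55 genes the interneuron libraries lay on opposite sides of all WT motoneuron libraries, and this difference between types was not tested. The other members were not looked at in this way, so 5 is not a count over all 95. Kcna1 (52.8), Kcnk9 (495.7), Kcnmb4 (769.3) and Kcnn2 (145.6) were above all motoneuron libraries in V1 and below them in V2a and V3. Kcnmb4, the BK beta subunit, had 406 to 577 in WT motoneurons, against 235 in V2a and 294 in V3. Kcnk1 was below all motoneuron libraries in V2a (13.2, against a lowest of 13.7) and above them in V1 and V3 (73.4 and 32.9, against a highest of 32.6), where V2a and V3 passed the WT range by little.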

How the results depend on the processing

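Counts of Kcn genes called in DKO against WT moved most. Against 1 higher and 2 lower, there were 3 higher with a pseudocount of 5 or quantile normalization, 0 higher and 1 lower without a filter, 7 higher with only WT replicates 2, 3 and 4, and 3 higher beside 4 lower with only WT replicates 1, 5 and 6. Leaving out 1 WT library gave 0 to 3 higher and 1 to 3 lower. Fits that leave 1 DKO library lost most calls over all genes, so they are not counted here. With the replicate number as a block there were 0 and 0 (16 at an unadjusted p under 0.05, and 20 without the block), and 120 and 94 over all genes, against 523 and 776 without it. Deviations of same-numbered DKO and WT libraries correlated at -0.0576 and 0.00472. With 2 DKO libraries these deviations mirror each other, so the values cannot tell whether same-numbered libraries belong together, and the labels give no pairing. All 3 DKO calls were lost under the block (Kcnn1 adjusted p = 0.0769, Kcnk1 0.0541, Kcnh3 0.286). Only WT replicates 1 and 2 have a DKO library of the same number, so the other WT libraries add nothing to this difference. The losses therefore cannot tell whether pairing removes the calls. Kcnip3 was called higher with a pseudocount of 5 (0.0398), quantile normalization (0.04), without WT replicate 1 (0.0499) and with WT replicates 2, 3 and 4 alone (0.0441). Of the differences given in the text, 2 changed direction under the alternatives run. Kcnb2 turned to -0.0068 with only WT replicates 2, 3 and 4, and Kcnh4 turned to -0.031 with only WT replicates 1, 5 and 6. Calls gained with only WT replicates 2, 3 and 4 were also those of Kcnt1, Kcnn2 (0.0324), Kcnh7 (0.0323), Kcnq1ot1 (0.0425), Kcnab1 and Kcnh4 (0.04). The cause of these changes was not tested. The 5 tested 8mer genes other than Kcnb2 were positive under every alternative run. Kcnj16, at few reads, entered some of these fits only, in part with a negative value.

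Against interneurons, 8 lower calls became 3 with WT replicates 1, 5 and 6 alone, 10 with WT replicates 2, 3 and 4 alone and 4 to 7 when 1 library was left out. The 24 higher calls became 16, 17 and 17 to 29 in the same order. Against progenitors, 11 lower became 7 with a minimum mean of 5, where fewer genes are tested, and 7 to 11 without 1 library. Of the calls chosen by the naming rule or described in the text, 16 of 24 against interneurons and 21 of 25 against progenitors were kept in every such fit. Over such differences and the alternatives run, 1227 values kept their direction and their side of the threshold, 102 lost a call, 19 gained one and 2 reversed. Since each symbol had 1 row, summing rows changed no Kcn value. DKO replicate 1 was the shallowest library and limits what could be seen at a signal under about 4.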
